A study of Macaca mulatta with 4 samples.

Results

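The subject here is 10 genes of peptide signalling: the neuropeptide precursor genes CRH, NPY, GAL, TAC1 and SST, CRHBP, whose product binds corticotropin releasing hormone, and the granin genes SCG2, CHGA, CHGB and VGF. They were chosen by symbol, with their expression in these libraries already known, and all 10 were found among 23697 genes, each in 1 row. Because the values themselves led to the choice, the levels below describe these libraries and no test was made on them. The study made haploid neural progenitor cells of the rhesus monkey, Macaca mulatta, and used them for mutation screens, with RNA sequencing of the cells and their precursors. Of its 4 samples, 3 were compared here: diploid embryonic stem cells (ESCs), labelled embryonic day E3.5, haploid ESCs, labelled E2.5, and diploid neural progenitor cells (NPCs), labelled E3.5. The source of every sample is given as in vitro differentiation and its tissue as embryo. Haploid NPCs, also labelled E2.5, are not described, because no column of values carried their label. The groups are called diploid stem cells, haploid stem cells and progenitors below. Each group was 1 library, so no difference below has a replicate check and none has a p-value. The labels do not say from which line, animal or passage a library came. Ploidy and labelled embryonic day cannot be told apart in the comparison of ESCs. Between progenitors and haploid stem cells, cell type differs along with both, and the 3 cannot be told apart.

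Neuropeptides are made as long precursors, cut at pairs of basic residues by the prohormone convertases PCSK1 and PCSK2, trimmed by carboxypeptidase E (CPE) and often amidated by PAM. The products are packed with granins, acidic proteins that help to form dense core vesicles, and are released when calcium rises. CRH, corticotropin releasing hormone, is the hypothalamic peptide that starts the hormonal stress response by making the pituitary release corticotropin. In primates the placenta makes it as well. In the nervous system these genes mark particular neurons, while neural progenitors are dividing cells that give rise to neurons and glia.

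Levels are given in FPKM (fragments per kilobase and library size), a unit per transcript length in which genes may be compared with each other. Read totals were not given. Judged by the most frequent ratio among low values, the haploid stem cell library had 95.2% and the progenitor library 78.6% of the depth of the diploid stem cell library. The number of reads behind a low value is unknown, and values well below 1 FPKM may rest on very few. Log2 ratios were taken after adding 1 to each FPKM value, so differences between low values are understated. A gene was counted as differing at a ratio of 4-fold (2 on the log2 scale), if its mean over the 3 libraries was at least 1 FPKM, as for 14474 genes. The labelled cell types were compared with their markers. All 6 pluripotency markers were lower in progenitors, by at least 4-fold, with a summed level of 2641 FPKM in diploid stem cells, 2010 FPKM in haploid stem cells and 3.2 FPKM in progenitors. The 10 neural progenitor markers summed to 639, 692 and 2033 FPKM in the same order. VIM (195, 183 and 1101 FPKM) and FABP7 (0.86, 6 and 403 FPKM) carried most of the rise. SOX1 was at 0.09, 0.14 and 18.2 FPKM, while the defining progenitor factor PAX6 reached only 3.68 FPKM in progenitors. NES was nearly level, at 253, 266 and 280 FPKM, and SOX2 was lowest in progenitors, at 149, 161 and 109 FPKM.

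CRH was nearly silent in both stem cell libraries and among the more abundant transcripts of the progenitor library. CRH (NCBI gene 702877) stood at 0.11 FPKM in diploid stem cells, 0.28 FPKM in haploid stem cells and 191 FPKM in progenitors. The progenitor library alone was high, and both stem cell libraries were near 0. By level, CRH was at rank 494 of the 23697 genes in progenitors, against rank 18614 in diploid and 15902 in haploid stem cells. The log2 ratio of progenitors was 7.44 against diploid stem cells, exceeded by 3 of the 14474 genes, and 7.23 against haploid stem cells, exceeded by 4. Between the stem cell libraries the log2 ratio was 0.21 (haploid over diploid), on values too low to be read as a difference.

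The other genes of the CRH system stayed low in all 3 libraries. CRHBP (NCBI gene 707589), a secreted protein that holds CRH away from its receptors, was at 0.48 FPKM in diploid stem cells and 0.18 FPKM in progenitors, and was listed at 0 in haploid stem cells. No library reached 1 FPKM for it, so it was left out of the ratios. The CRH receptor genes were at or near 0: CRHR1 was at 0.27 FPKM in diploid stem cells, 0.03 FPKM in haploid stem cells and 0 in progenitors. CRHR2 was at 0.16 and 0.04 FPKM in the stem cell libraries and was listed at 0 in progenitors. POMC, the corticotropin precursor that CRH acts on in the pituitary, was at 0.26 FPKM in diploid stem cells and listed at 0 in the other libraries. UCN, which encodes the related peptide urocortin, was the one other ligand above 1 FPKM, at 1.32 FPKM in diploid stem cells, 0.32 FPKM in haploid stem cells and 5.33 FPKM in progenitors. UCN was thus highest in the same library as CRH, at a far lower level. UCN2 was at 0.2 FPKM in haploid stem cells and listed at 0 elsewhere.

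**Figure D1:**
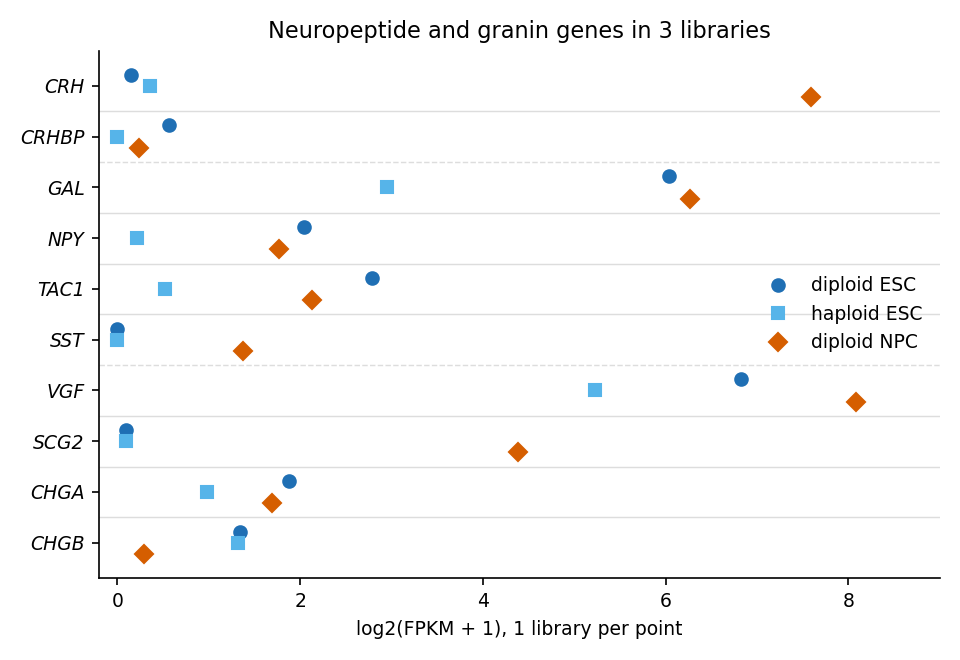
Level of each of the 10 genes in the 3 libraries, as log2 of FPKM plus 1, with 1 point per library and no error because each group is 1 library; dashed lines separate the CRH genes, the other peptides and the granins. CRH and SCG2 are near 0 in both stem cell libraries and high in progenitors (191 and 19.9 FPKM), while GAL, NPY and TAC1 are lowest in haploid stem cells.

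Galanin, neuropeptide Y and the tachykinin 1 precursor had another pattern. They were present in diploid stem cells and progenitors at like levels and lower in haploid stem cells. GAL (NCBI gene 721572), the precursor of galanin, a peptide that mostly inhibits neurons and is also well known as a transcript of pluripotent cells, stood at 64.7 FPKM in diploid stem cells, 6.73 FPKM in haploid stem cells and 75.9 FPKM in progenitors. The haploid library was the low one, and diploid stem cells and progenitors were within a log2 ratio of 0.23. Its log2 ratio of haploid over diploid stem cells was -3.09, and 100 of the 14474 genes had a lower one. TAC1 (NCBI gene 697350), which encodes substance P and neurokinin A, was at 5.91 FPKM in diploid stem cells, 0.44 FPKM in haploid stem cells and 3.37 FPKM in progenitors. It too was lowest in haploid stem cells, with a log2 ratio of -2.26 against diploid stem cells and 1.60 for progenitors over haploid stem cells. NPY (NCBI gene 574114), the precursor of neuropeptide Y, which stimulates feeding and is widespread in the brain and sympathetic nerves, was at 3.13, 0.16 and 2.4 FPKM in diploid stem cells, haploid stem cells and progenitors. Its ratio of haploid over diploid stem cells, -1.83, was short of 4-fold, and with a pseudocount of 0.1 in place of 1 it was -3.63. The order of the libraries was the same as for TAC1: diploid stem cells, progenitors, haploid stem cells. SST (NCBI gene 708626), the precursor of somatostatin, an inhibitory peptide of interneurons and islets, was listed at 0 in both stem cell libraries and was at 1.60 FPKM in progenitors. Its mean of 0.53 FPKM left it out of the ratios. SST overlaps a long noncoding RNA gene in a newer annotation of the rhesus genome, and since strand was not stated the reads of the pair cannot be told apart.

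Among the granins, VGF was abundant everywhere and SCG2 was a progenitor transcript, while the chromogranins were low. VGF (NCBI gene 719578), a neurotrophin-inducible precursor of several peptides, stood at 112 FPKM in diploid stem cells, 36.4 FPKM in haploid stem cells and 270 FPKM in progenitors. progenitors were highest and haploid stem cells lowest, with log2 ratios of 1.26 for progenitors over diploid stem cells, -1.60 for haploid over diploid stem cells and 2.85 for progenitors over haploid stem cells. VGF was the most abundant of the 10 genes in each library, at rank 315 of all genes in progenitors. SCG2 (NCBI gene 706499), secretogranin II, the precursor of secretoneurin, was at 0.07 FPKM in both stem cell libraries and at 19.9 FPKM in progenitors. The deposited table gives this row the symbol SCG2 but a KEGG entry for titin, while RefSeq gives the same gene ID the symbol SCG2. The row was near 0 in both stem cell libraries, and its log2 ratio of progenitors was 4.29 against either, exceeded by 63 genes in the comparison with diploid stem cells and by 122 in that with haploid stem cells. CHGA (NCBI gene 574388), chromogranin A, the classical marker of neuroendocrine cells, was at 2.67, 0.98 and 2.22 FPKM in diploid stem cells, haploid stem cells and progenitors. It had the order of NPY and TAC1, with a smaller log2 ratio of haploid over diploid stem cells, -0.89. CHGB (NCBI gene 719171), chromogranin B, went against VGF and SCG2. It was at 1.53 FPKM in diploid stem cells, 1.5 FPKM in haploid stem cells and 0.22 FPKM in progenitors. The stem cell libraries were alike for CHGB, and progenitors were lower by log2 ratios of -1.05 and -1.04, or -2.35 and -2.32 with a pseudocount of 0.1, which is past 4-fold.

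The granin-like genes outside these 10 were SCG3, SCG5 and PCSK1N. PCSK1N encodes proSAAS, an inhibitor of PCSK1, and was at 12.4 FPKM in diploid stem cells, 4.12 FPKM in haploid stem cells and 97.9 FPKM in progenitors. SCG3, which binds chromogranin A to vesicle membranes, was at 2.51, 0.06 and 8.55 FPKM. Like VGF, both were highest in progenitors and lowest in haploid stem cells. SCG5, the chaperone of PCSK2, was at 21.6, 10.5 and 16.8 FPKM and highest in diploid stem cells. Over the 7 granin and granin-like genes the summed level was 153 FPKM in diploid stem cells, 53.6 FPKM in haploid stem cells and 415 FPKM in progenitors. VGF made up 73.4%, 67.9% and 64.9% of these sums. PCSK1N made up 8.10%, 7.68% and 23.6%, and SCG2 took 4.80% in progenitors.

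**Figure D2:**
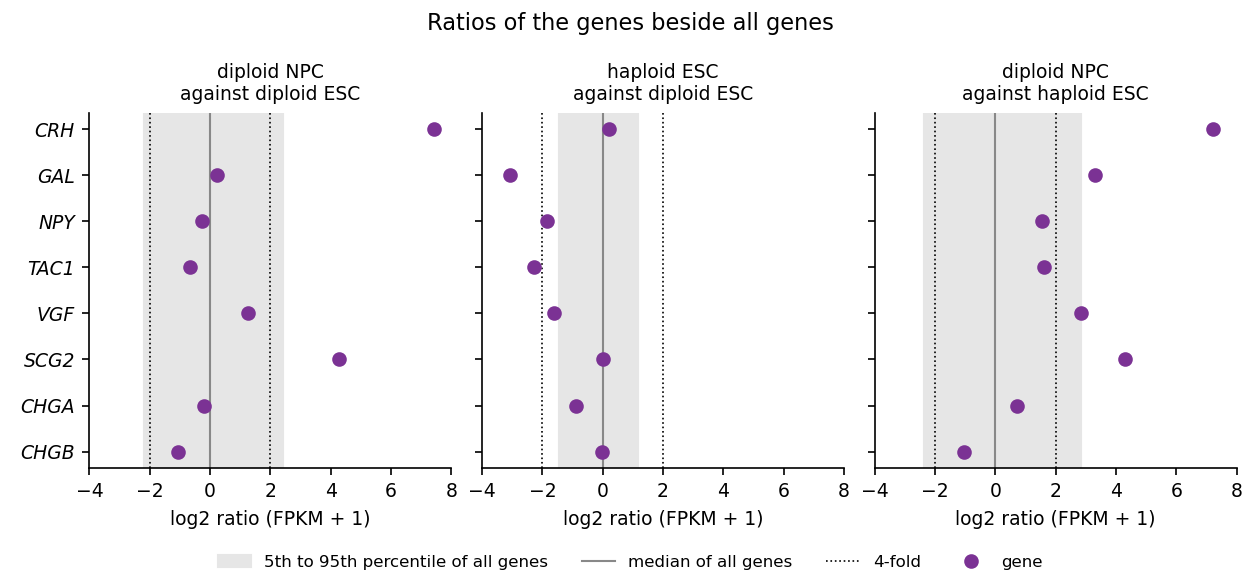
Log2 ratios of FPKM plus 1 for the 8 genes whose mean reached 1 FPKM, in 3 comparisons that share libraries; the grey band spans the 5th to 95th percentile of all 14474 genes, the grey line is their median and the dotted lines mark 4-fold. CRH and SCG2 lie to the right of the band where progenitors are compared, at 7.44 and 4.29 against diploid stem cells, and GAL, TAC1, NPY and VGF lie to the left of it in haploid against diploid stem cells, at -3.09, -2.26, -1.83 and -1.60. In progenitors against haploid stem cells GAL (3.31) and VGF (2.85) also lie to the right of the band, VGF at its edge.

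Of the 10 genes, 8 had a mean of at least 1 FPKM. In progenitors against diploid stem cells, 2 of these 8 were at least 4-fold higher, CRH and SCG2, and 0 were at least 4-fold lower. Of all genes 8.28% were higher and 6.11% lower by that size. CRH and SCG2 passed the filter on low values through progenitors alone, so a gene like them could only differ, and nothing is read from the count. The median log2 ratio of the 8 genes was 0.019, beside 0.0077 over all genes: apart from CRH and SCG2 they ran from -1.05 (CHGB) to 1.26 (VGF). In haploid against diploid stem cells, 2 of 8 were at least 4-fold lower, GAL and TAC1, and 0 were higher, where 2.53% of all genes were lower and 1.04% higher. With each library rescaled to a sum of 1000000, NPY also passed, making 3, and higher genes made up 40.2% of all calls in place of 29.2%. Such rescaling raised every value while the pseudocount and the filter stayed at 1, so it changed their weight as well as the library scale. The median log2 ratio of the 8 was -1.24, beside 0.025 over all genes; it was -0.73 over all 10 genes with no filter. Ratios in this comparison ran lower for genes that span less of the genome (Spearman rho of 0.28 across 13318 genes, which are not independent replicates). All 8 genes lie in the shortest tercile of spans, whose median log2 ratio was -0.20, and the part of gene length in the result was not tested. In progenitors against haploid stem cells, 4 of 8 were at least 4-fold higher, CRH, SCG2, GAL and VGF, beside 11.6% of all genes, and 0 were lower, beside 7.9%. Against diploid stem cells the log2 ratios of GAL and VGF were 0.23 and 1.26. In the comparison with haploid stem cells, cell type, ploidy and labelled embryonic day differ at once and cannot be told apart. Here too CRH and SCG2 passed the filter through progenitors alone, and shorter genes ran higher (rho of -0.22, with a median log2 ratio of 0.43 in the shortest tercile), a part that was not tested. Rescaling to a sum of 1000000 left the count at 4, while higher genes made up 48.3% of all calls in place of 59.4%. The comparisons share libraries, so they are not independent of each other.

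Set among other neuropeptide precursors, CRH made up most of the measured precursor level of progenitors. For 50 precursor genes, the 5 named above, 3 others of the CRH and corticotropin family and 42 further ones, the summed level was 160 FPKM in diploid stem cells, 31.9 FPKM in haploid stem cells and 341 FPKM in progenitors. In progenitors, CRH was 56% of the sum and GAL 22.2%. PENK, the precursor of the opioid enkephalins, came next with 4.85%, at 16.6 FPKM against 1.19 FPKM in diploid and 0.43 FPKM in haploid stem cells. NMB, the neuromedin B precursor, was at 9.30 FPKM in progenitors, 2.56 FPKM in diploid stem cells and 1.24 FPKM in haploid stem cells, and NPFF, a precursor of pain-modulating peptides, at 8.96, 1.5 and 1 FPKM. In diploid stem cells, GAL was 40.3% of the sum and PDYN, the precursor of the opioid dynorphins, 31.3%. PDYN was highest in diploid stem cells, at 50.2 FPKM, and stood at 3.07 FPKM in haploid stem cells and 0.13 FPKM in progenitors. KISS1, the kisspeptin precursor, was also highest in diploid stem cells, at 3.55, 0.99 and 0.10 FPKM. In haploid stem cells, GAL was 21.1% of the sum and NMU, the neuromedin U precursor, 18.8%. NMU was highest in haploid stem cells, at 6 FPKM against 1.38 FPKM in diploid stem cells and 1.65 FPKM in progenitors.

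**Figure D3:**
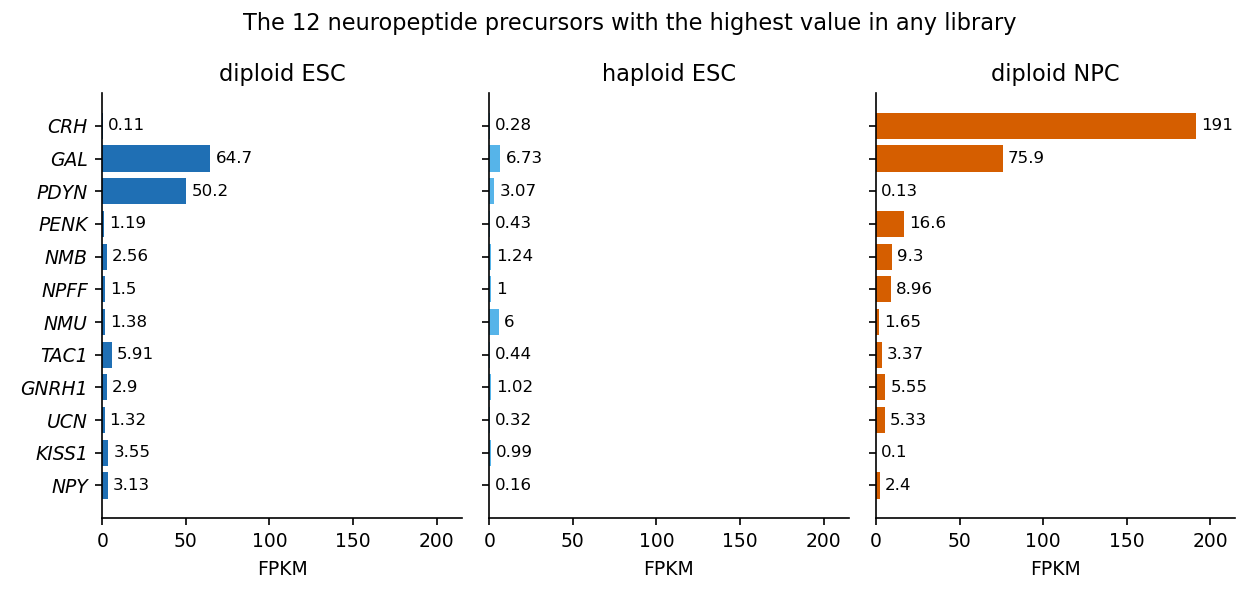
FPKM of the 12 neuropeptide precursor genes with the highest value in any of the 3 libraries, 1 bar per library with no error because each group is 1 library, on a common axis from 0. CRH (191 FPKM) and GAL (75.9 FPKM) lead in progenitors, GAL (64.7 FPKM) and PDYN (50.2 FPKM) in diploid stem cells, and no precursor passes 6.73 FPKM in haploid stem cells.

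Most of the 42 further precursors were low. In diploid stem cells 16 of them reached 1 FPKM, in haploid stem cells 7 and in progenitors 10, and 6, 14 and 6 were listed at 0. Counted at any size and with no filter, 31 of the 42 were lower in haploid than in diploid stem cells and 8 were higher, beside 48.6% and 45.1% of all genes and 49.1% and 35.3% of genes with a mean below 1 FPKM. In progenitors against diploid stem cells, 21 were higher and 19 lower, beside 50.6% and 46% of all genes. Of the 12 with a mean of at least 1 FPKM, PENK was at least 4-fold higher in progenitors than in diploid stem cells, and PDYN and KISS1 were at least 4-fold lower, beside 8.28% of all genes higher and 6.11% lower. PENK passed that filter only through progenitors and KISS1 only through diploid stem cells, so nothing is read from these counts.

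The enzymes that turn precursors into peptides were unevenly represented. PCSK2, the convertase of neuronal dense core vesicles, was listed at 0 in diploid stem cells and was at 0.04 FPKM in haploid stem cells and 0.05 FPKM in progenitors. PCSK1, the other vesicle convertase, was at 1.72 FPKM in diploid stem cells, 2.35 FPKM in haploid stem cells and 0.53 FPKM in progenitors. Both were thus low in the library with the highest CRH. CPE was present in all 3, at 20.0, 13.7 and 27.9 FPKM in diploid stem cells, haploid stem cells and progenitors. PAM, the amidating enzyme, was at 11.3, 19.7 and 26.3 FPKM. FURIN, a convertase of the constitutive pathway that all cells use, was lower in progenitors, at 28.4 FPKM in diploid stem cells, 42.7 FPKM in haploid stem cells and 4.03 FPKM in progenitors. QPCTL, a Golgi enzyme that cyclises N-terminal glutamine, was at 27.6, 10.4 and 113 FPKM and QPCT, its secreted relative, at 4.52, 19.9 and 2.20 FPKM. Of the 12 processing enzymes with a mean of at least 1 FPKM, 0 were at least 4-fold higher in progenitors than in diploid stem cells and 2 were lower, FURIN and CPZ, beside 8.28% and 6.11% of all genes, with a median log2 ratio of 0.30. CPZ, a carboxypeptidase bound to the extracellular matrix, was at 7.59 FPKM in diploid stem cells and 4.62 FPKM in haploid stem cells and was listed at 0 in progenitors. In haploid against diploid stem cells 0 passed 4-fold in either direction, beside 1.04% of all genes higher and 2.53% lower, and the median was 0.32.

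The dense core vesicle machinery held genes higher and genes lower in progenitors, in shares near those of all genes. Of its 35 genes, 27 had a mean of at least 1 FPKM, and in progenitors against diploid stem cells 3 of these were at least 4-fold higher and 1 lower, near the 8.28% and 6.11% of all genes, with a median log2 ratio of -0.14; under TMM scaling, which corrects for a shift common to most genes, 1 was higher, and with a pseudocount of 0.1, 4 were lower. RAB27A, a small GTPase of vesicle docking, stood at 4.66 FPKM in diploid stem cells, 3.96 FPKM in haploid stem cells and 31.4 FPKM in progenitors. The synaptotagmins SYT5 and SYT4 were at 12.2 and 3.38 FPKM in progenitors, SYT4 passing the filter through that library alone, against 2.29 and 0.07 FPKM in diploid stem cells and 0.46 and 0.03 FPKM in haploid stem cells. CADPS, the priming factor of dense core vesicles, was the lower one, at 6.16, 0.95 and 0.26 FPKM in diploid stem cells, haploid stem cells and progenitors. CADPS passed the filter through diploid stem cells alone. SNAP25, a fusion protein of neurons and endocrine cells, was low throughout, at 0.58, 1.79 and 1.55 FPKM. With no filter, 21 of the 35 were lower in haploid than in diploid stem cells and 14 higher, beside 48.6% and 45.1% of all genes. Of the 27, 0 passed 4-fold in that comparison, beside 2.53% lower and 1.04% higher of all genes. The median of the 27 was -0.41, beside 0.025 over all genes that passed the filter. With a pseudocount of 0.1, 5 were at least 4-fold lower and 1 higher. HID1, needed for vesicle maturation, was at 2.34 FPKM in diploid stem cells, 0.15 FPKM in haploid stem cells and 6.75 FPKM in progenitors, the order of libraries seen for VGF and SCG3.

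Receptors for the peptides were mostly low, with the somatostatin receptor SSTR2 as the exception in progenitors. SSTR2 stood at 13.6 FPKM in diploid stem cells, 3.34 FPKM in haploid stem cells and 65.6 FPKM in progenitors, a log2 ratio of 2.19 over diploid and 3.94 over haploid stem cells. Its ligand gene SST was at 1.60 FPKM in the same progenitor library. NPY1R, a receptor of neuropeptide Y, was lowest in progenitors, at 9.77, 5.02 and 1.16 FPKM in diploid stem cells, haploid stem cells and progenitors. TACR3, the neurokinin B receptor, was listed at 0 in progenitors and stood at 3.81 and 2.58 FPKM in diploid and haploid stem cells. GALR1, a galanin receptor, was at 3.88 FPKM in diploid stem cells, 0.17 FPKM in haploid stem cells and 0.23 FPKM in progenitors. GALR1 was thus highest in diploid stem cells, while GAL was at 64.7 FPKM there and at 75.9 FPKM in progenitors. Of 14 receptor genes measured, 6 were listed at 0 in progenitors. The 5 whose mean reached 1 FPKM held 1 at least 4-fold higher in progenitors than in diploid stem cells, SSTR2, and 2 lower, NPY1R and TACR3, where 8.28% of all genes were higher and 6.11% lower.

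**Figure D4:**
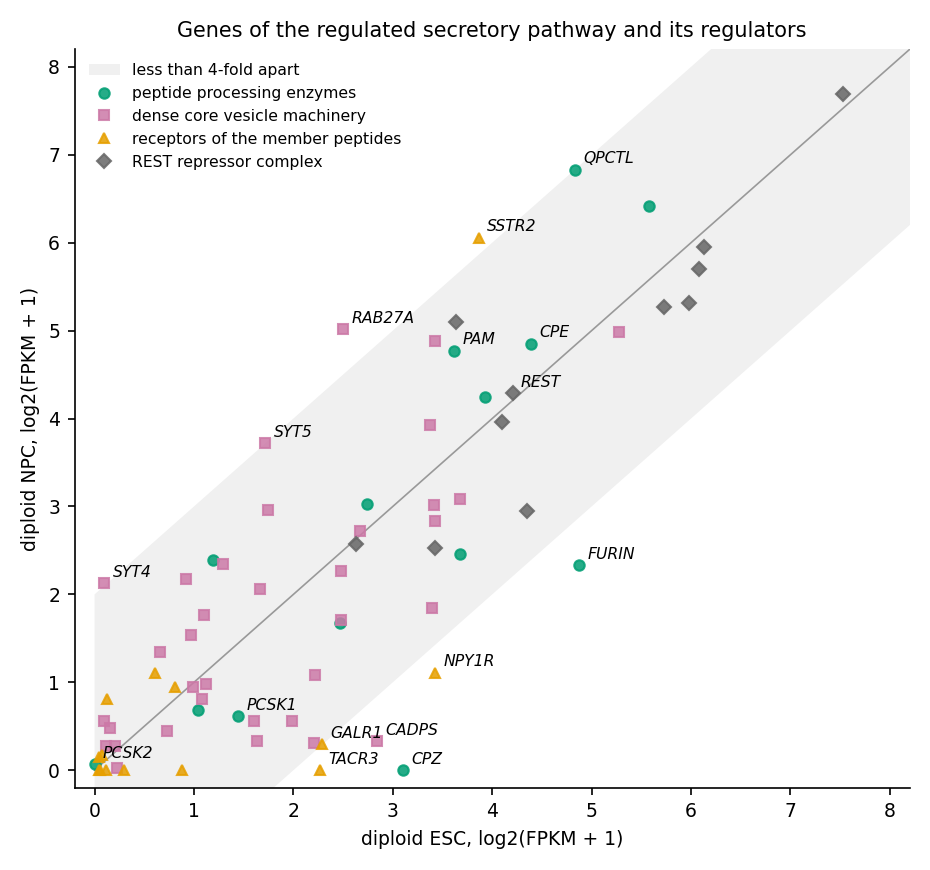
Log2 of FPKM plus 1 in diploid stem cells (horizontal axis) and progenitors (vertical axis) for genes of peptide processing, dense core vesicles, peptide receptors and the REST repressor complex, 1 library per axis; the line marks equal levels and the grey band less than 4-fold apart. RAB27A, SSTR2, SYT4 and SYT5 lie above the band, the synaptotagmins at its edge, and FURIN, CPZ, CADPS, NPY1R and TACR3 below it, while REST lies on the line (17.4 and 18.6 FPKM).

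Transcriptional regulators tied to these genes were also compared. REST, which represses many neuronal genes outside neurons, granin and peptide genes among them, was at 17.4 FPKM in diploid stem cells, 21.8 FPKM in haploid stem cells and 18.6 FPKM in progenitors, nearly level in the 3 libraries. All 11 genes of its complex had a mean of at least 1 FPKM and 0 differed by 4-fold in any of the 3 comparisons; their log2 ratios of progenitors over diploid stem cells ran from -1.41 to 1.46. The 11 genes of the CREB family and its coactivators, which carry cyclic AMP signals to CRH, SST and VGF, likewise had 0 past 4-fold. Their log2 ratios of progenitors over diploid stem cells ran from -1.62 to 0.69. Of all genes, 8.28% were higher and 6.11% lower by 4-fold in that comparison. The shares were 1.04% and 2.53% in haploid against diploid stem cells, and 11.6% and 7.9% in progenitors against haploid stem cells. With 11 genes per list, nothing is read from the counts of 0. Among transcription factors of peptidergic neurons, 23 of 25 symbols were matched and 3 had a mean of at least 1 FPKM, all 3 of them at least 4-fold higher in progenitors than in diploid stem cells, the library through which they passed the filter. POU3F2, a POU factor needed in mice for the hypothalamic neurons that make CRH, stood at 0.04 FPKM in diploid stem cells, 0.29 FPKM in haploid stem cells and 81.6 FPKM in progenitors. POU3F3, its close relative, was at 0.29, 0.21 and 38.1 FPKM. ARNT2, the partner of SIM1, was at 0.72, 1.90 and 8.15 FPKM. The other defining factors of hypothalamic CRH neurons were near 0: OTP was at 0.02 FPKM in diploid stem cells and listed at 0 in the other libraries, and SIM1 was at 0.02 FPKM in diploid stem cells, listed at 0 in haploid stem cells and at 0.08 FPKM in progenitors.

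The genes whose levels over the 3 libraries were most like those of CRH, by Euclidean distance of log2 FPKM plus 1, were ACAT2, POU3F2, BAALC, CNPY1 and NKX6-2. ACAT2 was nearest, at a distance of 0.94, with 0.04 FPKM in diploid stem cells, 0.11 FPKM in haploid stem cells and 101 FPKM in progenitors. POU3F2 followed at 1.22 and BAALC at 1.43, with BAALC at 0.89, 0.91 and 90.8 FPKM. With a pseudocount of 0.1, 3 of these 5 were again among the nearest 5, and NR2F1 and PAX8 took the places of BAALC and CNPY1. With 3 libraries such likeness says only that a gene was near 0 in stem cells and high in progenitors.

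Markers of other cell types were read beside these results, since a bulk library cannot tell apart fewer cells of a type from less RNA per cell. The 12 neuron markers, all above 0 in each library, summed to 74.9 FPKM in diploid stem cells, 81.0 FPKM in haploid stem cells and 803 FPKM in progenitors, so the sum moved with CRH and SCG2; its part in the result was not tested. Of the 11 with a mean of at least 1 FPKM, 7 were at least 4-fold higher in progenitors than in diploid stem cells and 1 was lower. Of all genes 8.28% were higher and 6.11% lower by that size. Some of the higher ones, such as ELAVL3 (0.27, 0.05 and 28.5 FPKM) and DCX, passed the filter through progenitors alone. A few abundant genes carry the sum. TUBB3, neuronal tubulin, was at 245 FPKM in progenitors and DCX, of young migrating neurons, at 6.60 FPKM. The lower one was RBFOX3, a marker of mature neurons, at 5.85, 0.23 and 0.45 FPKM in diploid stem cells, haploid stem cells and progenitors. RBFOX3 passed the filter through diploid stem cells alone. The trophoblast markers, relevant because placenta makes CRH, had 9 of 13 symbols matched and summed to 37.8, 23.3 and 31.6 FPKM; most of the progenitor sum was SDC1, which many epithelia share, at 28.8 FPKM. In progenitors CGA was listed at 0, GCM1 was at 0.05 FPKM and ELF5 at 0.84 FPKM. ELF5 was lower in diploid and haploid stem cells, at 0.05 and 0.08 FPKM. KRT7 (10.8, 0.34 and 0.19 FPKM) and TFAP2C (10.1, 5.85 and 1.36 FPKM) were highest in diploid stem cells. Of the 9 trophoblast markers, 3 were higher and 6 lower in progenitors than in diploid stem cells, beside 50.6% and 46% of all genes. The 7 matched neuroendocrine and islet markers summed to 0.41, 0.19 and 1.21 FPKM, with INSM1, a factor of endocrine differentiation, at 0.58 FPKM in progenitors. The 13 matched neural crest and sympathoadrenal markers summed to 82.6, 37.1 and 15 FPKM; in progenitors FOXD3 and DBH were listed at 0, SOX10 was at 0.03 FPKM and TH at 0.04 FPKM. TFAP2B went the other way, listed at 0 in diploid stem cells and at 0.01 FPKM in haploid stem cells and 4.05 FPKM in progenitors, and PRPH, peripherin, was at 0.90, 0.73 and 2.04 FPKM. The 9 fibroblast markers summed to 471, 708 and 159 FPKM, a sum highest in haploid stem cells, where GAL, NPY and TAC1 were lowest. Of the 9, 6 were higher in haploid than in diploid stem cells and 3 lower, beside 45.1% and 48.6% of all genes. ACTA2 (17.8, 123 and 5.93 FPKM) was highest in haploid stem cells, COL1A1 (235, 206 and 12.7 FPKM) in diploid stem cells and POSTN (1.27, 9.59 and 45.1 FPKM) in progenitors. The part of these markers in the result was not tested either.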

How the data were processed

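RNA of rhesus ESCs and NPCs was sequenced on a BGISEQ-500. Per the labels' protocols, reads were mapped to the UCSC assembly Rhesus8, allowing 2 mismatches, and featureCounts at its defaults gave reads per gene; genes were kept where the reads of all samples summed to more than 10. The submitters' processing notes name STAR 2.4. The authors deposited FPKM to 2 decimals; its computation, the strand setting and the total reads were not given in the sources used here. Columns were matched to samples by description; 1 further column of values matched no sample and stayed out.

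FPKM was used as deposited, with the filter, pseudocount and threshold given above. The 10 genes and 16 further lists (245 symbols with the 10 genes, 226 matched by symbol or NCBI gene ID) were chosen with earlier results of these data known. Named were all 10 genes, genes among the up to 4 per list with the largest ratios past 4-fold, receptors, enzymes and factors whose role is explained, and the 5 genes most like CRH. Some genes with such ratios, most of them cell type markers, were not named singly. Named only once their values were known were UCN2, POMC, SNAP25, NMU, SIM1, NES, DCX, SDC1, CGA, GCM1, ELF5, INSM1, DBH, SOX10, PRPH and TH. Relative depth came from the most frequent ratio of values between 0.15 and 0.6 FPKM. Gene spans and order came from RefSeq's T2T-MMU8v2.0 table, another assembly, and served only for ranks and names. Promoter sequences were not used here. Tools were numpy 2.4.6 and scipy 1.17.1 for ratios and correlations, pandas 2.3.3 for tables, matplotlib 3.10.9 for plots and Python 3.11.15, and the ratio and scaling steps were tested on simulated data.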

Additional observations from a re-analysis of the deposited data

How the results depend on the processing

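The number of the 10 genes past 4-fold was recomputed at thresholds of 2-fold and 8-fold, with rescaling to a sum of 1000000, with TMM (trimmed mean) factors, with no filter or one at a mean of 5 FPKM, and with a pseudocount of 0.1. Rescaling raised every value against a pseudocount and filter kept at 1, so its changes are not those of library scale alone. The genes lower in progenitors numbered 1 in place of 0 with a pseudocount of 0.1 and at 2-fold, against diploid and against haploid stem cells alike. The genes lower in haploid than in diploid stem cells numbered 1 with a mean of at least 5 FPKM, 4 at 2-fold and 1 at 8-fold, in place of 2. The other counts of the 10 genes stayed within 1.5 times of the reported ones under these alternatives. With a pseudocount of 0.1, 3 of the 5 genes most like CRH were shared. Of 108 recomputed log2 ratios of single genes, 15 moved by 0.5 or more, none past 4-fold changed sign, and CHGB in haploid against diploid stem cells, at -0.017, took both signs. The median log2 ratio of the 8 genes in progenitors against diploid stem cells, 0.019, was -0.11 under TMM, -0.063 under rescaling, -0.013 with a pseudocount of 0.1 and 2.77 with a mean of at least 5 FPKM, which leaves CRH, SCG2, GAL and VGF. In haploid against diploid stem cells that median, -1.24, was -0.80 with the same filter and -0.73 with none. In progenitors against haploid stem cells the median, 2.23, was 3.80 with that filter, 1.58 with no filter and 3.08 with a pseudocount of 0.1. Among the other lists, the next counts are for progenitors against diploid stem cells. The higher precursors numbered 3 with a pseudocount of 0.1 and 2 under rescaling, in place of 1. The higher processing enzymes numbered 1, not 0, with a pseudocount of 0.1. In the same comparison, a mean of at least 5 FPKM left 1 vesicle gene higher in place of 3. It left 1 receptor, 1 precursor and 1 processing enzyme lower in place of 2 each. In haploid against diploid stem cells, rescaling put 2 vesicle genes at least 4-fold lower in place of 0. In progenitors against haploid stem cells, it put 1 gene of the REST complex and 2 of the CREB list at least 4-fold lower, in place of 0. Of 652 recomputed values in all, lists included, 130 moved by more than 1.5 times (counts) or by 0.5 or more (log2 ratios and medians). The median of all genes shifted by -0.14 and -0.15 under TMM in progenitors against diploid and haploid stem cells, and by 0.17 (haploid over diploid stem cells) and -0.21 (progenitors over haploid stem cells) under rescaling. The planned look at promoter motifs was not run. No paired analysis was possible because each group was 1 library. Depth limits every value well below 1 FPKM, those of CRH, SCG2 and CRHBP in stem cells included.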

Other observations

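The protein-coding genes that flank CRH, SCG2, VGF and TAC1 in the RefSeq gene order had these levels. TRIM55, on one side of CRH, was at 0.02 FPKM in both stem cell libraries and 2.10 FPKM in progenitors, and RRS1, on the other, was at 34.3 FPKM in diploid stem cells, 36.8 FPKM in haploid stem cells and 14.4 FPKM in progenitors. Of the genes that flank SCG2, KCNE4 was at 0.26, 0.32 and 0.10 FPKM in diploid stem cells, haploid stem cells and progenitors, and AP1S3 at 0.51, 0.29 and 1.93 FPKM, highest in progenitors as SCG2 was. VGF lies between AP1S1 and NAT16, and both were highest in progenitors, as VGF was: AP1S1 stood at 103 FPKM in diploid stem cells, 82.8 FPKM in haploid stem cells and 184 FPKM in progenitors, and NAT16 at 2.79, 0.23 and 7.48 FPKM. ASNS, asparagine synthetase, next to TAC1, was at 124, 41.3 and 18.9 FPKM, while SDHAF3 on its other side was at 7.67, 7.81 and 6.85 FPKM. These neighbours were looked up after the values of the 10 genes were known, and no test was made.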
